A study of Mus musculus with 78 samples.

Results

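The 10 transcription factor genes of striatal projection neurons, Isl1, Ebf1, Foxp1, Foxp2, Meis2, Bcl11b, Rarb, Ikzf1, Sp9 and Six3, were followed across the brain libraries of mice with and without Acss2. They were taken by name as a list of 10 genes, all of them among the 55367 genes in both deposited count tables. The list was chosen with earlier results of these data known. The series holds 78 poly(A) RNA-seq libraries from 7 brain regions of 12 single-housed adult C57BL6/J mice, 3 of each sex and genotype. KO mice carried a constitutive CRISPR deletion in Acss2, made with guides in introns on either side of exons 3 to 7 and backcrossed to C57Bl6/J for 3 generations, and WT mice did not. The deletion is in every cell of the body, so no comparison here separates striatal neurons from other cells. The product of Acss2 turns acetate into acetyl-CoA. Every mouse, KO or WT, had drunk ethanol, 15% by volume, in the drinking-in-the-dark paradigm for binge-like intake. It began with 1 week of habituation, then sessions of 2 h on days 1 to 3 and 4 h on day 4 with water as a choice, then a second week in which water was withheld during the sessions. Each mouse gave up to 7 regions. Both striatal regions and both hippocampal regions had 6 KO and 6 WT libraries, the amygdala and the cortex 6 and 5, and the prefrontal cortex 4 and 4 (1 male KO, 3 female KO, 2 male WT and 2 female WT).

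The striatum is built mostly of GABAergic projection neurons that arise in the lateral ganglionic eminence. They fall into the direct pathway, which carries the dopamine receptor Drd1, and the indirect pathway, which carries Drd2 and enkephalin. Isl1 and Ebf1 act in the differentiation of direct-pathway neurons. Sp9 and Six3 are needed for indirect-pathway neurons, and Ikzf1, better known as a regulator of blood cell lineages, has been tied to enkephalin-positive striatal neurons. Foxp1, Foxp2, Meis2 and Bcl11b (also called Ctip2) are broader factors of the projection neuron lineage, and Rarb encodes a retinoic acid receptor that is enriched in the striatum. Several of the genes are also used elsewhere: Isl1 in cholinergic neurons, Ebf1 in mural cells of vessels, Foxp1 and Bcl11b in cortical layers, Bcl11b in the hippocampus, Ikzf1 in microglia, and Meis2 and Sp9 in olfactory bulb neurons. In tissue libraries, fewer cells of a type and less RNA per cell cannot be told apart.

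Among the direct-pathway factors, Isl1 lies on chromosome 13, 116298281 to 116309689 on the minus strand, and Ebf1 on chromosome 11, 44617317 to 45008091 on the plus strand (GRCm38, GENCODE M21). Among the indirect-pathway factors, Sp9 lies on chromosome 2, 73271925 to 73284706 on the plus strand, Six3 on chromosome 17, 85613608 to 85629302 on the plus strand, and Ikzf1 on chromosome 11, 11685003 to 11772926 on the plus strand. Foxp1 lies on chromosome 6, 98925338 to 99522721 on the minus strand, Foxp2 on chromosome 6, 14901349 to 15441977 on the plus strand, Meis2 on chromosome 2, 115863064 to 116065839 on the minus strand, Bcl11b on chromosome 12, 107910403 to 108003602 on the minus strand, and Rarb on chromosome 14, 16430839 to 16819156 on the minus strand. All 10 are protein coding. The library kit named in the labels does not mark strand, so reads of overlapping genes on opposite strands cannot be told apart. The exons of Rarb share 2020 of 5265 bases with Top2b and Gm48162 on the other strand, the largest overlap of the 10. Six3 shares 274 bases with Six3os1 and Gm28528, Foxp1 shares 435 with a pair of predicted genes, Sp9 shares 270 with Cir1, and the other 6 share none.

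Stretches before the start sites of 4 genes are shown. Rarb is the gene that was lowest, relative to its region, in all 3 ventral striatum libraries poor in projection neuron markers that are described below. Isl1, Six3 and Sp9 are genes that stayed near or inside their usual range in one of the 3. Ebf1 and Ikzf1, which are not shown, stayed inside it there as well. The stretches come from the RefSeq promoter table of GRCm38.p6, in which 9 of the 10 genes have an entry (Foxp2 is the exception), with 13 windows in all. Only the 250 bases before each start were searched, on both strands. The Rarb window holds the letters GGTTCA and AGTTCA spaced by 5 bases of any kind, the known direct repeat through which retinoic acid receptors act on Rarb itself, 53 bases before the start. 2 of all 32851 windows (0.00609%) hold this spaced pair. The capitals mark the repeated half-sites, at chr14:16575513-16575529 on the minus strand. In GENCODE M21 the site also lies inside the first exon of a longer Rarb transcript.
Rarb: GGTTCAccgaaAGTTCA
In the Isl1, Six3 and Sp9 stretches the capitals mark CCAAT or its reverse complement ATTGG, a common promoter box found in 33.8% of all windows and in 5 of the 13 windows of these genes, those of Foxp1, Isl1, Meis2, Six3 and Sp9. Foxp1 and Meis2 were low in the library in which Isl1, Six3 and Sp9 stayed. Ebf1 and Ikzf1 were inside their range in that library, and their windows hold no CCAAT box. Whether the box bears on these levels was not tested, nor was which tissue that library holds. The stretches are chr13:116309690-116309938 on the minus strand for Isl1, chr17:85620584-85620789 on the plus strand for Six3, and chr2:73271676-73271924 on the plus strand for Sp9, each without bases that an annotated exon covers. There were 2 matches for Isl1, 3 for Six3 and 2 for Sp9. The other motifs searched were the GC box GGGCGG, in 4 of the 13 windows (Foxp1, Ikzf1 and Sp9) and 32.7% of all, the forkhead core TGTTTA, in 3 (all Foxp1) and 12%, and the Meis core TGACAG, in 2 (Foxp1 and Six3) and 15.9%. A match is a run of letters, not a measured binding site.
Isl1: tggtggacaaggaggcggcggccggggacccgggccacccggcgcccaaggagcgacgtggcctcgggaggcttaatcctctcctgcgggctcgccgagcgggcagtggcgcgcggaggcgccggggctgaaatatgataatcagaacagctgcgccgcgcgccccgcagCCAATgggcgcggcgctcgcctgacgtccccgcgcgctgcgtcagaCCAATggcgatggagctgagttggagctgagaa
Six3: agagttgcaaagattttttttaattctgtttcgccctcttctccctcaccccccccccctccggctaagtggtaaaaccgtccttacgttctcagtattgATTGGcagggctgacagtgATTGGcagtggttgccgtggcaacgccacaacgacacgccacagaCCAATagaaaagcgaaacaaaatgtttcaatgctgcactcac
Sp9: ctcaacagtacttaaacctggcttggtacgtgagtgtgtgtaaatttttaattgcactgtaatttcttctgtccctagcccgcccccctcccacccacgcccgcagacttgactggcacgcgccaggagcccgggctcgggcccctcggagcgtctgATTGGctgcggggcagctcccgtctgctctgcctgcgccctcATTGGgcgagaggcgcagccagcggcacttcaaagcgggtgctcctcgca

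Values are CPM, the count of a gene scaled to a library total of 1e6. The 47 libraries of both striatal regions, the amygdala and the dorsal hippocampus held 4454420 to 14487778 counts, and the 31 of cortex, prefrontal cortex and ventral hippocampus held 629635 to 1228828. A value of 3 counts, the limit that a count of 0 allows, was 0.207 to 0.673 CPM in the first set and 2.44 to 4.76 CPM in the second, so a low level of Isl1 or Six3 was not detectable in the shallow regions. These limits cover counting error only. Acss2 separated the genotypes in every library, at 0.971 to 14 CPM in 40 KO and 35.9 to 73.8 CPM in 38 WT libraries. The library labelled female WT prefrontal cortex of mouse 23 did not match its sex label (Xist 0 counts, Ddx3y 60 counts).

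Several libraries stood apart from their region label on genes outside the list of 10. The summed CPM of 14 projection neuron markers (among them Drd1, Drd2, Adora2a, Penk, Tac1 and Ppp1r1b, the gene of DARPP-32) had a median of 10359 over the 24 striatal libraries. 5 of the 24 fell under 50% of that median and are called low-marker libraries below, a class set after seeing the data, while the other 19 ranged from 6857 to 17710.4 CPM. The library labelled dorsal striatum of female WT mouse 23 had a marker sum of 1121 CPM, 1 count of Drd2 and 1856 CPM of Slc17a7, the glutamate transporter of cortical excitatory neurons. The library labelled dorsal striatum of male KO mouse 10 had a marker sum of 1410.3 CPM, 46 counts of Drd2 and 1763 CPM of Slc17a7. Both go against their label. The ventral striatum libraries of male KO mouse 10, male WT mouse 13 and female WT mouse 11 had sums of 2601, 1336 and 3639 CPM. The sum of mouse 13 was below that of the dorsal library of mouse 10. It came with 86 counts of Drd2, and Ppp1r1b was at 5.56% of the median of the 9 other ventral libraries. Which tissue these 3 ventral libraries hold was not tested. Outside the striatum, the library labelled ventral hippocampus of female KO mouse 6 had a sum of 7705 CPM against 827 to 1108 CPM in the other 11 of that region. In the prefrontal cortex, the libraries of male WT mouse 3 and female WT mouse 11 carried Eomes and Doc2g, genes of the olfactory bulb, at 49.1 and 51.9 CPM and at 37.5 and 62.9 CPM. Eomes was at most 3.18 CPM in the other 6.

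Both direct-pathway factors were highest in the striatum. Isl1 ranged over 5.71 to 22.6 CPM (median 15.2, n = 12) in the ventral and 0 to 20.8 CPM (median 13.5, n = 12) in the dorsal striatum. In the amygdala it was 0 to 10 CPM (median 1.39, n = 11), and it was at 0 in 26 of the 54 non-striatal libraries. The dorsal libraries at the bottom of the range are those labelled female WT mouse 23 and male KO mouse 10, at 0 and 0.469 CPM. Without the 5 low-marker libraries, Isl1 was 9.19 to 22.6 CPM in the striatum, and 2 of the 54 other libraries reached that range, led by the ventral hippocampus library of female KO mouse 6 at 13.5 CPM. Ebf1 was less confined to the striatum, at 9.62 to 24.8 CPM (median 17.4) in the 19 striatal libraries left after the 5 low-marker ones and 0 to 17.4 CPM (median 4.86) in the 54 others, of which 5 overlapped the striatal range.

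The indirect-pathway factors had different regional profiles. Six3 was 23 to 65.1 CPM (median 39.9, n = 12) in the ventral striatum, 0 to 57.3 CPM (median 44.2, n = 12) in the dorsal striatum and 1.46 to 41.1 CPM (median 14, n = 11) in the amygdala. It was at 0 in 7 of 11 cortex and 10 of 12 ventral hippocampus libraries, where the depth would not show a level of a few CPM. Sp9 was spread more widely, at 8.65 to 20.4 CPM (median 15.7, n = 12) in the ventral striatum, 1.88 to 25.5 CPM (median 13.2, n = 12) in the dorsal striatum and 3.78 to 29.6 CPM (median 12.4, n = 11) in the amygdala. The top Sp9 value of the series, 58.5 CPM, came from the prefrontal cortex library of male WT mouse 3 that carried olfactory bulb genes. Ikzf1 was the lowest of the 10 in the striatum, at 3.7 to 10.3 CPM (median 6.39, n = 12) in the ventral and 5.79 to 10 CPM (median 8.15, n = 12) in the dorsal striatum, on 20 to 110 counts a library. Its non-striatal libraries ran from 0 to 10.6 CPM, and 34 of the 54 lay at or above the lowest of the 19 striatal values, so the ranges overlapped widely.

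Among the broader lineage factors, Rarb and Foxp2 had striatal ranges above every other library once the 5 low-marker libraries were left out. That class was set on markers that Rarb followed in the remaining libraries, as given below. With all striatal libraries the lowest values were 9.07 CPM for Rarb and 15.7 CPM for Foxp2, inside the range of the other regions. Rarb was 59.1 to 154 CPM (median 109) in the 19 striatal libraries left after the 5 low-marker ones and 1.04 to 58.1 CPM (median 7.77) in the 54 others, with the top of those again in the ventral hippocampus library of female KO mouse 6. Foxp2 was 56.6 to 110.4 CPM (median 77.2) in the 19 striatal libraries left after the 5 low-marker ones and 0 to 55 CPM (median 9.08) elsewhere. Meis2 was the most abundant of the 10 by CPM, at 268 to 563 CPM (median 426) in the 19 striatal libraries left after the 5 low-marker ones, and 2 of the 54 others reached the striatal range, including the series' top value of 634 CPM in the prefrontal cortex library of male WT mouse 3. Foxp1 was 122 to 350.1 CPM (median 220.3) in the 19 striatal libraries left after the 5 low-marker ones, and 3 other libraries overlapped that range. Bcl11b did not set the striatum apart: the dorsal hippocampus held 71.8 to 257 CPM (median 204, n = 12) against 49.3 to 329 CPM (median 207, n = 12) in the dorsal striatum, and 26 of the 54 non-striatal libraries lay at or above the lowest of the 19 striatal ones. The cortex was low in Bcl11b, at 26.2 to 64.4 CPM (median 44, n = 11). Per kilobase of annotated exon in the dorsal striatum, Meis2 (31.8 CPM per kb) and Bcl11b (25.7) were the highest levels, and Ebf1 (1.67) and Ikzf1 (1.38) the lowest. The ranking is by annotated exon length, which can differ from the transcripts present. Rarb was at 18.2 CPM per kb over all 5265 exon bases, of which 2020 are shared with other genes, so its place is uncertain. The means include the 2 dorsal libraries that go against their label.

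**Figure D1:**
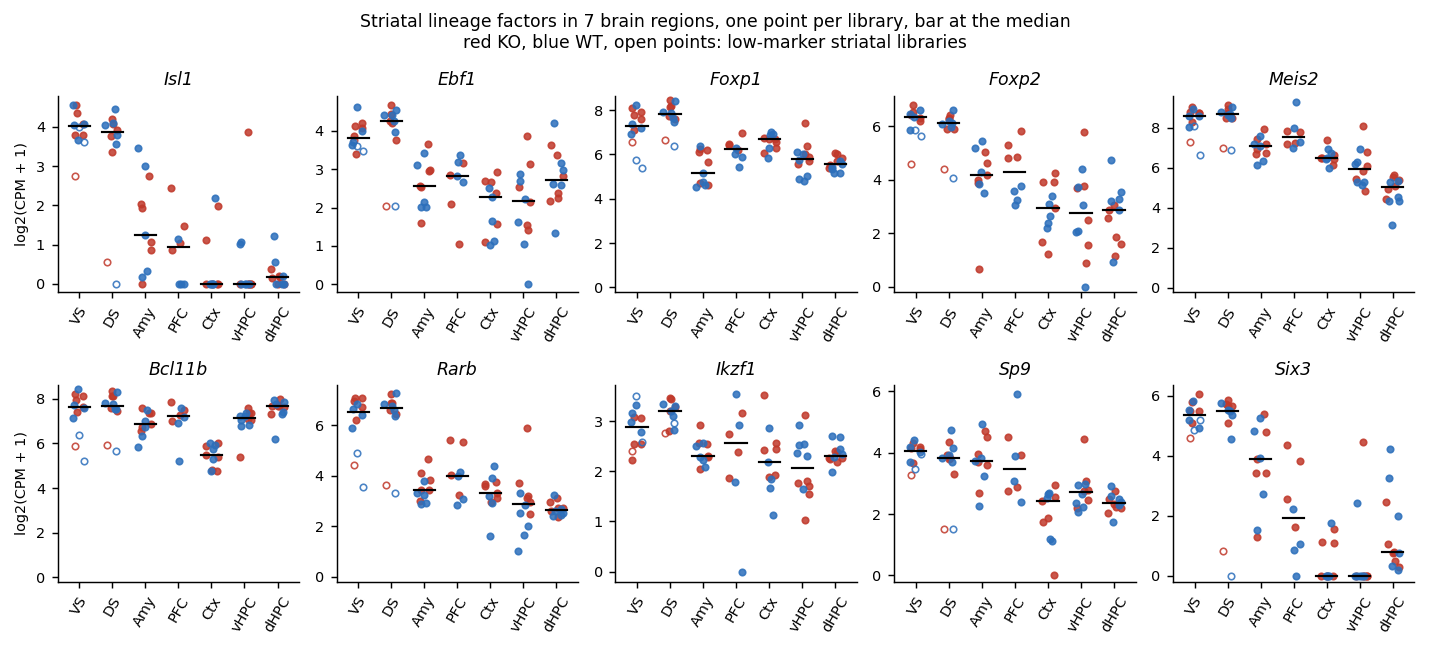
Levels of the 10 genes as log2(CPM + 1) on the y axis in ventral striatum (VS), dorsal striatum (DS), amygdala (Amy), prefrontal cortex (PFC), cortex (Ctx), ventral hippocampus (vHPC) and dorsal hippocampus (dHPC) on the x axis, one point per library, red for KO and blue for WT, with a bar at the median. Isl1, Rarb and Foxp2 stand high in the striatum, Bcl11b is as high in dHPC, and the open points are the 5 low-marker striatal libraries.

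No single step in the order of regions passed the test. Regions were ranked for each gene by mean log2(CPM + 1), and each region was compared with the next within mice by a two-sided exact sign-flip test, 60 tests in all. None of the 60 passed after Benjamini-Hochberg adjustment, and 13 had an unadjusted p under 0.05. With 7 mice the smallest p the test allows is 0.0156, and with 12 it is 0.000488. The smallest adjusted value, 0.0586, was reached at these steps: Isl1 from dorsal striatum to amygdala (mean within-mouse difference 1.72, higher in 10 of 11 mice), Ebf1 from ventral striatum to dorsal hippocampus (1.08, 11 of 12), Bcl11b from amygdala to cortex (1.48, 9 of 10) and Ikzf1 from ventral striatum to amygdala (0.40, 9 of 11). Rarb from ventral striatum to prefrontal cortex was lower by 2.37 on this scale in 8 of 8 mice, and Foxp2 from dorsal striatum to prefrontal cortex by 1.62 in 8 of 8, both at the smallest p that 8 mice allow (0.00781, exact, adjusted 0.067). Ventral and dorsal striatum were the first and second regions for 8 of the 10 genes, and this test separated the 2 for none of the 8. Sp9 had the amygdala second, and Bcl11b had the dorsal hippocampus first.

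Profiles over all 78 libraries were compared by Pearson's r of log2(CPM + 1) with 11758 genes of at least 5 CPM on average. These values describe libraries that share mice, depth and region, and no test was made. Isl1 was most like Chat (r = 0.94) and Slc5a7 (0.94), the choline acetyltransferase and choline transporter of cholinergic neurons. Rarb was most like Adcy5 (r = 0.95) and Gnal (0.94), an adenylyl cyclase and a G protein subunit of projection neurons. Six3 was most like Six3os1 (r = 0.95) and Cacng4 (0.90), of which Six3os1 is its partner on the opposite strand and cannot be told apart where they overlap. Foxp1 was most like Scn4b (r = 0.91) and Phactr1 (0.91), Meis2 like Cpne5 (r = 0.92) and Fnbp1l (0.90), and Bcl11b like Dgat2 (r = 0.90) and Plppr4 (0.86). Foxp2 was most like Kazn (r = 0.87) and Ccdc187 (0.87). Sp9 was most like Fam102b (r = 0.80) and Gad2 (0.77), the latter an enzyme of GABA synthesis, and Ebf1 like Scube3 (r = 0.80) and Stk32a (0.80). Ikzf1 had the weakest likeness of the 10, to Gabpa (r = 0.62) and Sspn (0.61). Within the list, Isl1 and Six3 were each other's closest match (r = 0.92), and Bcl11b had no match above 0.47.

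In none of the 3 low-marker ventral libraries did the 10 genes fall by the same share, and the order of the genes differed between these libraries. Shares are given of the median of the 9 other ventral libraries. In the library of male WT mouse 13, Rarb was 10.8 CPM (10.1%), Bcl11b 35.6 (16.8%), Foxp1 40.6 (21%), Meis2 100.1 (23.5%) and Foxp2 48.2 (56.5%), all below the range of the 9. In the same library Sp9 was 14.5 CPM (86.1%), Six3 35.3 (79.3%), Ikzf1 5 (72.6%) and Ebf1 10.2 (68.4%), inside the range, and Isl1 11.3 (72.1%), just below it. In the library of female WT mouse 11, Rarb was at 26.8%, Foxp1 at 27.5% and Bcl11b at 38.3%, while Meis2 was at 63.6% and Foxp2 at 65.7%, level with Six3 at 63.8% and Sp9 at 59.2%. Ebf1 at 75.3%, Isl1 at 94.5% and Ikzf1 at 149.8% were the highest there. In the library of male KO mouse 10, Rarb at 19.3%, Foxp2 at 26.8% and Bcl11b at 27.6% were the lowest, Meis2 was at 36.3%, Isl1 at 36.5%, Foxp1 at 48.5%, Sp9 at 51.3% and Six3 at 51.7%, and Ikzf1 at 62.8% and Ebf1 at 83.9% were inside the range. Rarb had the lowest share of the 10 in all 3 libraries. Summed markers of cholinergic neurons, which use Isl1, were 297, 265 and 86 CPM in the libraries of mice 13, 11 and 10, against 140.3 to 388 CPM in the 9 others, and their part in the Isl1 values was not tested. In the dorsal libraries labelled female WT mouse 23 and male KO mouse 10, Six3 was 0 and 0.782 CPM, Sp9 1.88 and 1.88, Rarb 9.07 and 11.3. Of the 10 genes, Ikzf1 kept the most of the dorsal median there, 81.1% and 68.5%, and Foxp1, which cortical neurons also use, came next at 34.3% and 41.7%.

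Among the 19 remaining libraries, Isl1 did not follow the projection neuron markers and 5 other genes did in both regions. Within the ventral (9 mice) and the dorsal striatum (10 mice), each gene's CPM was set against the summed projection neuron markers, which hold none of the 10 genes, 20 relations in all. For 5 genes the relation held in both regions after Benjamini-Hochberg adjustment. Foxp1 had r = 0.93 (Spearman's rho 0.92) in the ventral striatum, with an adjusted p of 0.0016 by exact permutation, and 0.97 (Spearman's rho 0.99) in the dorsal striatum, with an adjusted permutation p of 0.000333. Between the libraries with the lowest and highest marker sums, Foxp1 went from 122 to 299 CPM in the ventral and from 174 to 350.1 CPM in the dorsal striatum. Meis2 (0.91 and 0.95), Bcl11b (0.93 and 0.95), Rarb (0.87 and 0.96) and Ebf1 (0.80 and 0.80) were the other 4, with adjusted p from 0.0003 to 0.0124 by exact or sampled permutation. Without the 2 libraries farthest from the median marker sum, r for Foxp1, Meis2, Bcl11b and Rarb was 0.87 to 0.97, and for Ebf1 0.61 and 0.60. An r of at least 0.9 was reached by 3 of the 10 genes in the ventral striatum, where 0.788% of 13585 genes did, and by 4 of the 10 in the dorsal striatum, where 0.766% did. Both axes share the library total.

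Isl1 showed no such relation in either region, with r = -0.36 in the ventral striatum (adjusted p = 0.399, exact permutation) and 0.10 in the dorsal striatum (adjusted p = 0.777, permutation). The other 4 genes passed in one region. Sp9 and Six3 passed in the ventral striatum (r = 0.88 and 0.80, adjusted p = 0.00302 and 0.0163, exact permutation) and not in the dorsal (0.20 and 0.35). Foxp2 and Ikzf1 passed in the dorsal striatum (r = 0.81 and 0.78, adjusted p = 0.0076 and 0.013, permutation) and not in the ventral (0.40 and 0.19). Without the 2 libraries farthest from the median marker sum, these r were 0.75 and 0.77 ventrally and 0.74 and 0.76 dorsally, and Isl1 was at -0.74 ventrally. The difference between regions was not tested. Dorsal Sp9 included 1 high library, that of male WT mouse 13 at 25.5 CPM.

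**Figure D2:**
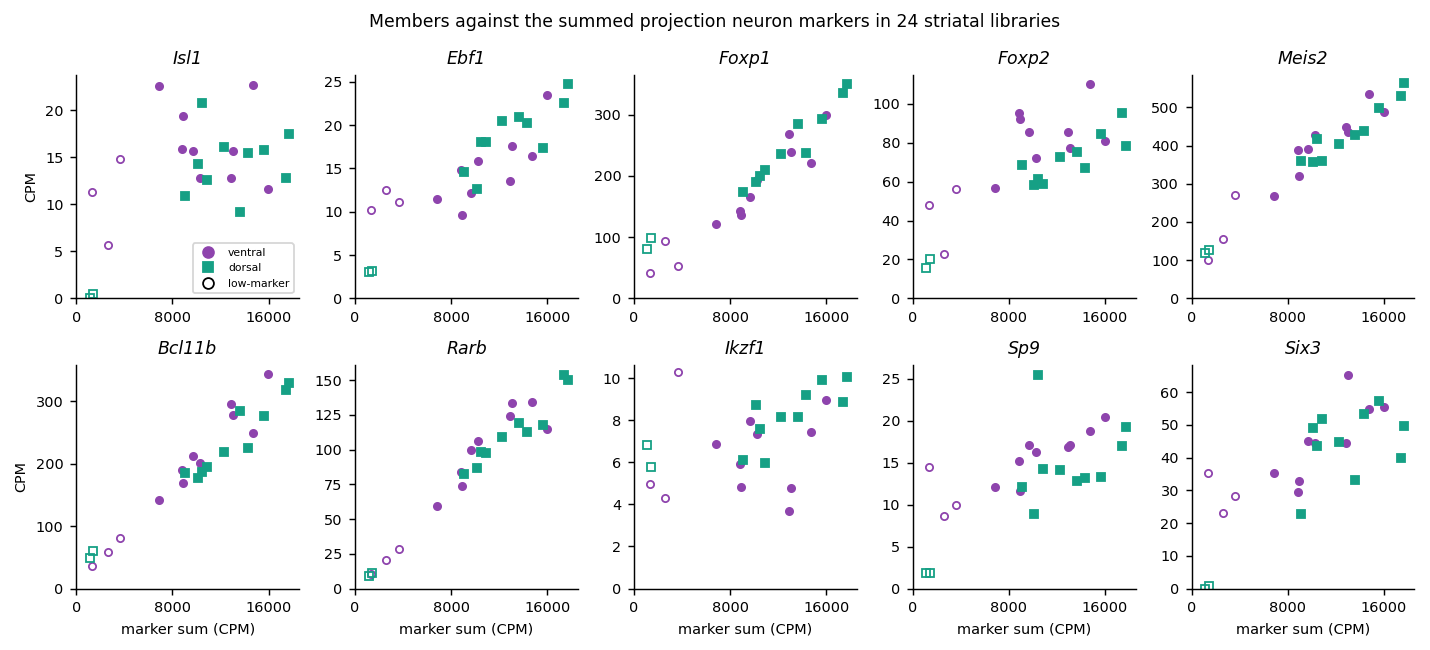
CPM of each of the 10 genes (y axis) against the summed CPM of 14 projection neuron markers (x axis) in 24 striatal libraries, circles for ventral and squares for dorsal striatum, open symbols for the 5 low-marker libraries. Foxp1, Meis2, Bcl11b and Rarb lie along rising lines, while Isl1 has no rising slope among the filled points and the open circle of male WT mouse 13 is low in Rarb and within the filled range in Six3 and Sp9.

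Between ventral and dorsal striatum, 1 of the 10 genes passed the test. In edgeR's quasi-likelihood fit on all 24 libraries, Ikzf1 was the 1 gene of the 10 under the threshold of 0.05 for the adjusted p. Over all 13599 genes tested, 10.9% were called (5.65% higher and 5.21% lower ventrally), so the count among the 10 was close to the background. Ikzf1 was 3.7 to 10.3 CPM (median 6.39, n = 12) in the ventral and 5.79 to 10 CPM (median 8.15, n = 12) in the dorsal striatum. The ranges overlapped, and Ikzf1 was lower ventrally in 8 of 12 mice. The log2 fold change of ventral over dorsal was -0.41 ± 0.13 (SE), with an adjusted p of 0.0419. The call was lost with the mouse as a block (-0.38 ± 0.15, adjusted p = 0.109) and in 10 of the 12 fits that each left out a mouse. It held without the 5 low-marker libraries (-0.45 ± 0.14, adjusted p = 0.033). Markers of microglia, which also express Ikzf1, gave 0 called genes of 10 in the same fit (3 positive and 7 negative fold changes, median -0.04, no unadjusted p under 0.05), and their sums were 354 to 731 CPM (median 451) in the ventral and 318 to 587 CPM (median 469) in the dorsal striatum.

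Foxp1 leaned to the dorsal side in most mice without passing the test. It was 40.6 to 299 CPM (median 154, n = 12) ventrally and 81.1 to 350.1 CPM (median 223, n = 12) dorsally, and higher dorsally in 10 of 12 mice and in 7 of the 8 mice without a low-marker library. Its log2 fold change was -0.53 ± 0.30 (adjusted p = 0.27, edgeR). Foxp2 was higher ventrally in 9 of 12 and 7 of 8 mice, with a log2 fold change of 0.17 ± 0.26 (adjusted p = 0.724, edgeR). Its sign turned without the 2 dorsal libraries that go against their label (-0.037) and in males alone (-0.076). The fit without those 2 kept the 3 low-marker ventral libraries. Without all 5 low-marker libraries, mean Foxp2 was 84 CPM in the ventral (n = 9) and 72.2 CPM in the dorsal striatum (n = 10). Ebf1 was -0.27 ± 0.28 with all libraries (adjusted p = 0.588). With the log2 marker sum as a covariate, Foxp1 was -0.44 ± 0.12 (adjusted p = 0.0187), Foxp2 0.37 ± 0.11 (0.0256) and Ikzf1 -0.37 ± 0.11 (0.0324), all 3 under the threshold, while Ebf1 was 0.012 ± 0.16 (0.967), where 16.5% of all genes were called. The covariate is itself measured in these libraries. Without the 2 dorsal libraries that go against their label, Ebf1 (-0.51 ± 0.15, adjusted p = 0.0253) and Ikzf1 were called, with 20.4% of all genes. Without all 5, Ebf1 was -0.38 ± 0.15 (adjusted p = 0.0839) and Foxp1 -0.40 ± 0.16 (0.0784), with 22.5% called.

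The other 6 genes had log2 fold changes from -0.30 to 0.26 with SE of 0.27 to 0.44 and adjusted p of at least 0.708 (edgeR). Six3, which was near 0 in both dorsal libraries that go against their label, had a wide error with them. Its log2 fold change was 0.13 ± 0.44 with all libraries and -0.01 ± 0.14 without the 5 low-marker ones, and its SE fell to about that of the other genes. Isl1 was higher ventrally in 6 of the 8 mice without a low-marker library, Sp9 in 6, Meis2 and Rarb in 5 each, Bcl11b and Six3 in 3 each. The median over the 10 genes was -0.20, beside -0.02 over all genes tested.

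**Figure D3:**
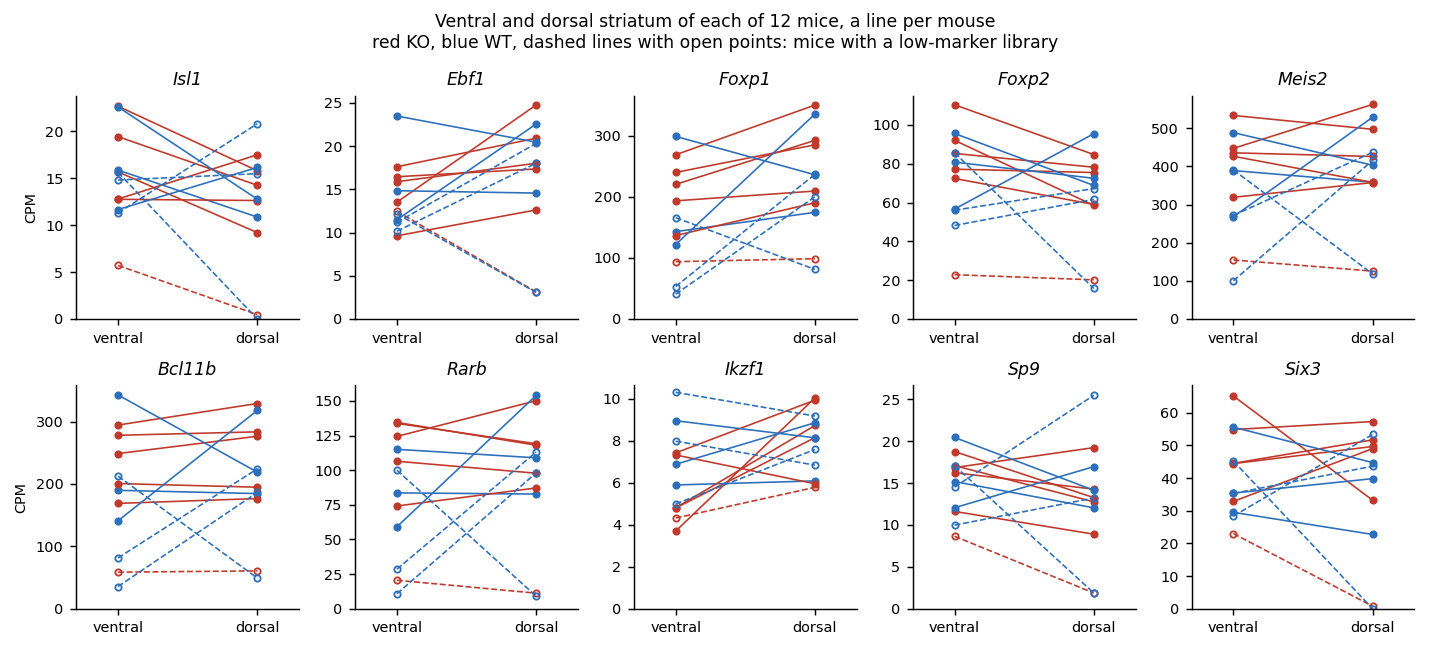
CPM of the 10 genes (y axis) in the ventral and dorsal striatum (x axis), with a line joining the libraries of each of 12 mice, red for KO and blue for WT, dashed with open points where either library is low-marker. Foxp1 rises toward the dorsal side in 7 of the 8 mice with solid lines and Foxp2 falls in 7 of 8, while Meis2, Rarb and Six3 lines cross.

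Other genes of the same pathways are given beside the 10.9% of all genes called in this fit (5.65% higher and 5.21% lower ventrally), and most of their counts are near that share. Of 27 further transcription factors of the ventral forebrain, 24 could be tested, 2 were higher ventrally and none lower. These were Foxp4, a forkhead relative of Foxp1 and Foxp2 (0.44 ± 0.11, adjusted p = 0.015), and Tshz1 (0.45 ± 0.13, adjusted p = 0.0357). Of 13 retinoid genes, 12 were tested. The receptor partner Rxra was higher ventrally (0.28 ± 0.08, adjusted p = 0.0207) and Aldh1a1, an enzyme that makes retinoic acid, was lower (-0.62 ± 0.18, adjusted p = 0.0322). Of 6 direct-pathway genes, Pdyn, which encodes the opioid precursor prodynorphin, was higher ventrally (1.05 ± 0.32, adjusted p = 0.0435), and of 5 indirect-pathway genes none was called (all 5 negative, smallest unadjusted p 0.418). None of the 14 projection neuron markers was called, and all 14 had negative fold changes (median -0.40, smallest adjusted p 0.258).

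Markers of other cells were counted against the same 10.9% of all genes called, and most lists had 1 or 2 calls. The cholinergic factor Lhx8 (1.46 ± 0.44, adjusted p = 0.0395) and Ecel1 (1.16 ± 0.35, adjusted p = 0.0412) were higher ventrally, 2 of 7 tested cholinergic markers, and the summed level was 86 to 388 CPM (median 222) against 4.96 to 166 CPM (median 143). Of 7 GABAergic interneuron markers 1 was higher, 1 lower and 5 did not pass: Lhx6, a factor of interneurons, was higher ventrally (1.23 ± 0.15, adjusted p = 9.07e-05) and the interneuron calcium-binding protein gene Pvalb lower (-1.39 ± 0.35, adjusted p = 0.0159). Of 10 oligodendrocyte markers 6 were lower ventrally, beside 5.21% of all genes, among them Mobp (-0.94 ± 0.24, adjusted p = 0.0189) and Mbp (-0.83 ± 0.23, adjusted p = 0.0244). Of 9 vascular and mural markers, Rgs5 (-0.48 ± 0.10, adjusted p = 0.00673) and Kcnj8 (-0.57 ± 0.16, adjusted p = 0.0251) were lower, both of them genes of mural cells, where Ebf1 is also expressed. No other gene of that list, which also holds Pdgfrb, Abcc9 and Vtn, was called. Each of the remaining lists with a call had 1 called gene, given here with its log2 fold change: Fezf2 of 9 cortical markers (-1.69), Wfs1 of 4 tested hippocampal markers (1.81), Tcf7l2 of 7 thalamic or septal markers (1.54), Slc1a2 of 6 astrocyte markers (-0.34) and Ttr of 3 tested choroid plexus markers (-3.95). Spread between libraries was wide for dorsal Fezf2 (11.7 ± 11 CPM, SD), dorsal Ttr (1248 ± 2217) and ventral Tcf7l2 (25.2 ± 37.5). It was smaller beside the mean for Slc1a2 and for Wfs1 (ventral 409 ± 216 CPM, dorsal 109 ± 35 CPM, SD). Which cells carried Wfs1 in the striatal libraries was not tested. All list calls of this and the previous paragraph used all 24 libraries, with the 2 dorsal ones that go against their label. Their values without those libraries are not given here. The part of these cells in the values of Isl1, Ebf1 and Ikzf1 was not tested.

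Loss of Acss2 was not accompanied by a called change in any of the 10 genes in the ventral striatum, the region named in the study's title. Both sexes were fitted together with sex as a covariate. Acss2 itself was the 1 gene called of 13536 tested (0.00739%), with a log2 fold change of -2.87 ± 0.24 and an adjusted p of 0.00055 (edgeR). The lowest, median and highest values of Foxp1 were 93.7, 207 and 269 CPM in 6 KO libraries and 40.6, 132 and 299 CPM in 6 WT libraries, with a log2 fold change of 0.53 ± 0.43 (adjusted p = 0.709). The ranges overlapped, and the 2 lowest WT values were those of the low-marker libraries of mice 11 and 13. Rarb was at 20.6, 115 and 134 CPM in KO and 10.8, 71.4 and 115 CPM in WT (0.62 ± 0.52, adjusted p = 0.71). The median of summed projection neuron markers was higher in KO as well, with 2601 to 14727 CPM (median 11572) in KO and 1336 to 15988 CPM (median 7842) in WT, and all 14 had positive fold changes without a call (median 0.47). The 10 oligodendrocyte and 8 cholinergic markers all had negative ones, also without a call (medians -0.10 and -0.47), and the part of these cells in the values was not tested. Without the low-marker libraries, Foxp1 was 0.21 ± 0.29 and Rarb 0.35 ± 0.23, less than their values with all libraries, and 0.00736% of genes were called.

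Ikzf1 went against this direction and was alone among the 10 in having an unadjusted p under 0.05 there. It was at 3.7, 4.81 and 7.43 CPM in KO and 5, 7.44 and 10.3 CPM in WT. The ranges overlapped between 5 and 7.43 CPM. The log2 fold change was -0.47 ± 0.16 with an unadjusted p of 0.0111 and an adjusted p of 0.647 (edgeR), and 7.31% of all genes had an unadjusted p under 0.05. It was -0.48 ± 0.20 without the low-marker libraries (adjusted p = 0.974), -0.43 ± 0.26 in males and -0.51 ± 0.26 in females. In the dorsal striatum Ikzf1 was at 5.79, 8.45 and 10 CPM in KO and 6.09, 7.87 and 9.18 CPM in WT (0.07 ± 0.19, adjusted p = 1). The difference of the KO effect between regions was -0.54 ± 0.25 (unadjusted p = 0.0454, adjusted p = 0.993, edgeR), which did not pass. Summed microglial markers were 354 to 543 CPM (median 449.6) in ventral KO and 385 to 731 CPM (median 452) in ventral WT libraries, and their part in the Ikzf1 values was not tested.

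The other 7 genes in the ventral striatum had log2 fold changes from -0.06 to 0.37 with SE of 0.22 to 0.48. Isl1 was at 5.71, 14.2 and 22.6 CPM in KO and 11.3, 15.2 and 22.6 CPM in WT. Sp9 was at 8.65, 16.5 and 18.8 CPM in KO and 9.97, 14.8 and 20.4 CPM in WT, with the same means to within 0.1 CPM. In the dorsal striatum the 10 genes ranged from -0.17 to 0.20 with a smallest unadjusted p of 0.559, where 1.5% of all genes were under 0.05. Acss2 was again the 1 gene called (0.00723% of 13824, and 0.0072% without the low-marker libraries). The medians over the 10 genes were 0.16 ventrally and 0.08 dorsally, beside 0.00 and 0.00 over all genes. A missing call does not show that KO and WT are alike: the SE of Rarb in the ventral striatum was 0.52, close to its fold change.

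The sexes were compared next, since the title speaks of males. In the ventral striatum of males (3 KO, 3 WT) Foxp1 was 239.8, 269 and 93.7 CPM in KO mice 1, 2 and 10 and 143, 122 and 40.6 CPM in WT mice 3, 12 and 13. The lowest in each genotype was a low-marker library. The log2 fold change was 1.03 ± 0.52 in males (adjusted p = 0.533) and 0.02 ± 0.55 in females (adjusted p = 1, edgeR), and the difference, females minus males, was -1.0 ± 0.85 (adjusted p = 0.943). For Bcl11b the difference was -0.93 ± 0.96 and for Isl1 0.86 ± 0.50, with an adjusted p of 0.943 for both. No gene of the 13536 passed this test (edgeR), although 513 had an unadjusted p under 0.05 and DESeq2 called 0. In the dorsal striatum the differences for the 10 genes ran from -0.11 to 1.1 (smallest unadjusted p 0.362), with 0 genes called by edgeR and by DESeq2 and 612 at an unadjusted p under 0.05. Between the regions the KO effect differed for none of the 10, with 0 of all genes called by either tool and 500 at an unadjusted p under 0.05.

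**Figure D4:**
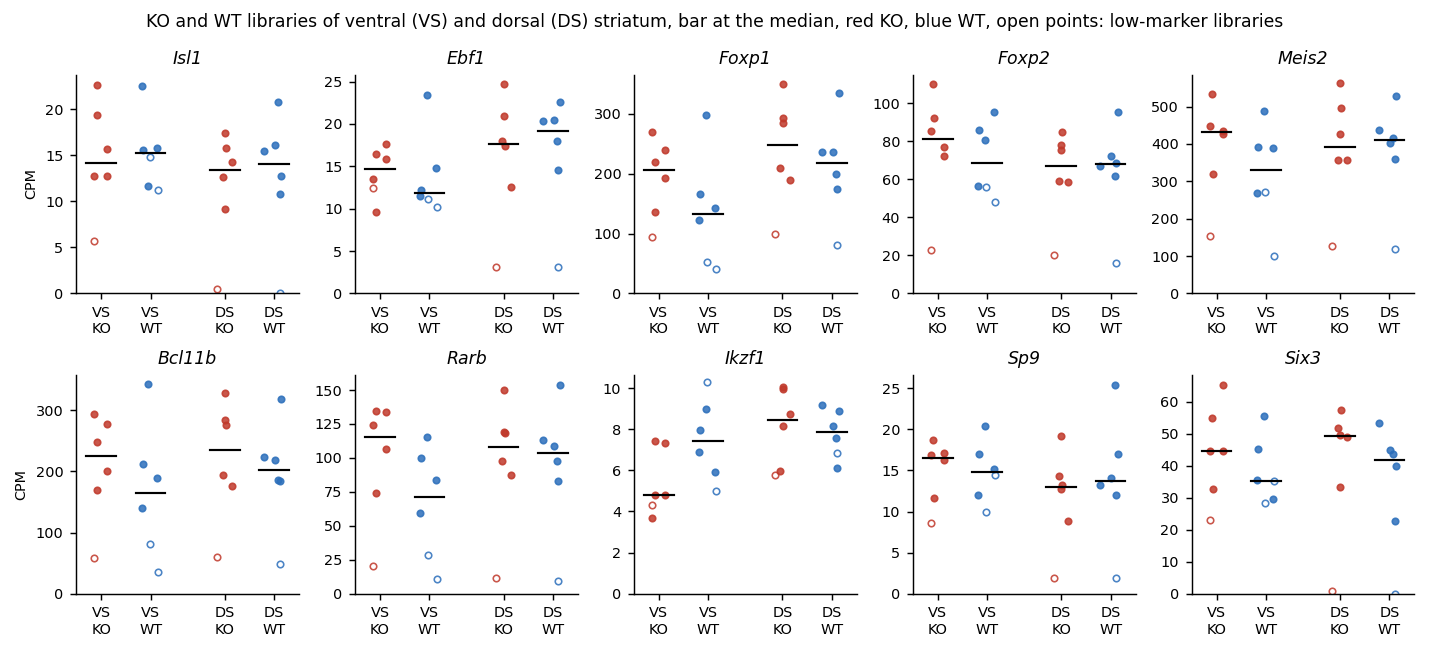
CPM of the 10 genes (y axis) in KO (red) and WT (blue) libraries of ventral (VS) and dorsal (DS) striatum, one point per library, 6 per group, with a bar at the median and open points for low-marker libraries. KO and WT overlap in every panel, and ventral Ikzf1 has a median of 4.81 CPM in KO and 7.44 CPM in WT.

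The prefrontal cortex was the 1 region in which a gene of the list was called between genotypes. Foxp2 was 38.7, 27.5, 55 and 26.9 CPM in the KO libraries of male mouse 1 and female mice 4, 5 and 6, and 8.49, 7.35, 12.7 and 11 CPM in the WT libraries of male mouse 3, female mouse 11, male mouse 12 and the library labelled female mouse 23. Every KO value lay above every WT value, and the ranges were apart, in either direction, for 3.68% of the genes tested. The counts behind these values were 44, 26, 62 and 33 in KO and 9, 9, 12 and 9 in WT. The log2 fold change was 1.95 ± 0.34 with an adjusted p of 0.0291 (edgeR), where 0.0949% of 10532 genes were called, 0.076% higher and 0.019% lower in KO, and 8.11% had an unadjusted p under 0.05. The call was lost without male KO mouse 1 (2.01 ± 0.47, adjusted p = 0.0794), without female WT mouse 11 (1.80 ± 0.39, adjusted p = 0.207) and without both libraries that carried olfactory bulb genes (1.65 ± 0.41, adjusted p = 0.1). Without the library whose sex did not match, it was 2.04 ± 0.39 (adjusted p = 0.0237).

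Striatal genes outside the list moved with Foxp2 in these libraries. Of the 14 projection neuron markers 5 were higher in KO and none lower, among them Adora2a (3.09 ± 0.52, adjusted p = 0.0122), Rgs9 (2.59 ± 0.38, adjusted p = 0.012), Ppp1r1b (2.28 ± 0.34, adjusted p = 0.0122) and Drd1 (2.56 ± 0.47, adjusted p = 0.032). Their sum was 3361, 1703, 4343 and 1884 CPM in KO mice 1, 4, 5 and 6, and 1307, 1229, 1419 and 1399 CPM in WT mice 3, 11, 12 and 23. The KO libraries with the highest sums, those of mice 1 and 5, were also highest in Foxp2, Rarb and Six3. Rarb was 41.3, 8.45, 39.1 and 15.5 CPM in KO and 17, 14.7, 7.41 and 6.12 CPM in WT (1.28 ± 0.46, adjusted p = 0.375). Six3, too low to be tested, was 19.3, 2.11, 13.3 and 4.88 CPM in KO and 0, 0.816, 1.06 and 3.67 CPM in WT. The 10 oligodendrocyte markers all had positive fold changes of 1.14 to 1.54 with no call (smallest adjusted p 0.0609), and 1 of 9 cortical excitatory markers, Cux2, was lower (-1.05 ± 0.19, adjusted p = 0.0461). The part of dissected striatal tissue, of olfactory bulb tissue, of cortical neurons or of oligodendrocytes in the Foxp2 difference was not tested.

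Of the other genes of the list in the prefrontal cortex, Bcl11b (0.81 ± 0.26, adjusted p = 0.34) and Foxp1 (0.54 ± 0.20, 0.432) had positive fold changes short of the threshold. Meis2 (-0.41 ± 0.33, 0.858) and Sp9 (-0.44 ± 0.56, 0.923) had negative ones. Both are olfactory bulb genes, and their highest values, 634 and 58.5 CPM, came from the WT library of mouse 3. Without both libraries that carried olfactory bulb genes, the fold changes turned positive, to 0.49 ± 0.18 for Meis2 and 1.26 ± 0.63 for Sp9. Isl1, Ebf1, Ikzf1 and Six3 did not pass the filter on low counts, which kept 6 of the 10 genes.

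**Figure D5:**
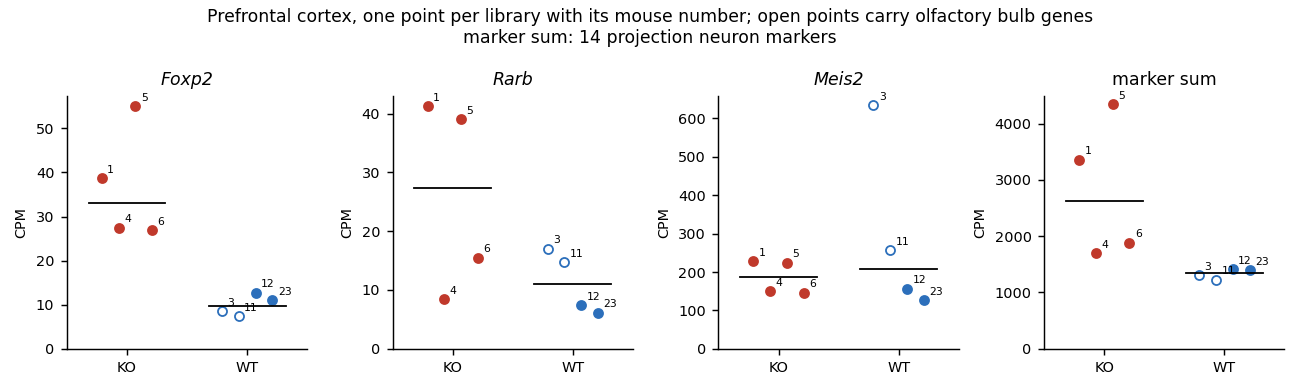
CPM of Foxp2, Rarb and Meis2 and the summed CPM of 14 projection neuron markers (y axes) in KO (red) and WT (blue) prefrontal cortex, one point per library labelled with its mouse number, a bar at the median, and open points for the 2 libraries that carried olfactory bulb genes. All 4 KO values of Foxp2 lie above the WT values, mice 1 and 5 lead in Foxp2, Rarb and the marker sum, and mouse 3 stands apart in Meis2.

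In the remaining regions Acss2 was the 1 gene called in each, which is 0.0103% of genes in the cortex, 0.00996% in the ventral hippocampus, 0.00699% in the amygdala and 0.00722% in the dorsal hippocampus. In the amygdala, where all 10 genes were tested, Rarb had the smallest p before adjustment, with a log2 fold change of 0.59 ± 0.29 and an adjusted p of 0.993 (edgeR). Isl1 had the largest fold change there (-1.16 ± 0.95, adjusted p = 0.993) and a wide spread, 0, 1.97 and 5.74 CPM as lowest, median and highest in 6 KO and 0.126, 1.39 and 10 CPM in 5 WT libraries. In the dorsal hippocampus 8 genes were tested, all but Isl1 and Six3. Foxp1 was 0.37 ± 0.14 and Foxp2 -1.25 ± 0.54, with unadjusted p of 0.022 and 0.0377 and an adjusted p of 1 for both. Foxp2 was highest there in the library of female WT mouse 23, at 25.3 CPM, beside choroid plexus markers summing to 4812 CPM.

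The shallow regions allowed fewer tests, with Foxp1, Meis2 and Bcl11b the 3 genes past the low-count filter in the cortex and in the ventral hippocampus. In the cortex their log2 fold changes were -0.15 ± 0.17, 0.06 ± 0.18 and -0.11 ± 0.22, with adjusted p of at least 0.908 (edgeR). In the ventral hippocampus Foxp1 was at 46.8, 60.8 and 168 CPM in 6 KO and 26.7, 42.4 and 67.6 CPM in 6 WT libraries, with overlapping ranges. Its log2 fold change was 0.85 ± 0.28 (unadjusted p = 0.00688, adjusted p = 0.982). Without female KO mouse 6, whose library holds striatal genes, it was 0.49 ± 0.22 (adjusted p = 0.918). That library had 58.1 CPM of Rarb, 20.8 of Six3 and 13.5 of Isl1, and the other 5 KO libraries had Rarb of 4.54 to 12 CPM and no counts of Six3 or Isl1.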

How the data were processed

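Poly(A) RNA of 300 ng total RNA a sample was sequenced, following the labels' protocols. The authors deposited raw read counts per gene symbol, in a table for each sex, with no normalization. The submitters' processing notes name STAR 2.5.2a, SAMtools 1.1, HTSeq 0.6.1, DESeq2, R 4.0.2, GRCm38 and mm10; the annotation and strand setting are not given in the sources used here. Every column was mapped to a sample by its title.

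The 10 genes, the gene lists and the named-gene rule (all 10 in every comparison, the 2 most alike genes of each, and up to 4 called genes of smallest p per list and comparison) were chosen with earlier results of these data known. CPM used the column total. Counts were tested with edgeR 4.0.16 (limma 3.58.1, R 4.3.3): TMM, filterByExpr with a minimum count of 10 and a minimum total of 15, quasi-likelihood F-tests and Benjamini-Hochberg adjusted p over all genes. Ventral and dorsal striatum were contrasted over sex and genotype group means. KO and WT were compared within a region with sex as a covariate. Sign-flip tests used log2(CPM + 1). Relations to marker sums used all orderings of 9 libraries, or 100000 permutations of 10. Alternatives were DESeq2 1.42.0 or its size factors, no filter, each mouse left out, each sex alone, and the mouse as a block. Leaving out low-marker or olfactory bulb libraries, and the marker covariate, were chosen after seeing the data. Fits were tested on simulated data.

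Same-numbered striatal libraries come from the same mouse. Their deviations from group means correlated across genes at -0.17 to 0.54 (median 0.16, over 0.1 in 10 of 12 mice). Within a region each library is from a different mouse, so p-values of KO against WT measure spread between mice. The main fits of ventral against dorsal striatum and of the KO effect between them hold both libraries of each mouse without a mouse term. Their p-values treat these libraries as independent and do not part spread within mice from spread between mice.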

Additional observations from a re-analysis of the deposited data

Results flagged for a closer look

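Each set of libraries of the same genotype and region, both sexes together, was searched for a library farther from its group than Dixon's 95% limit allows, in 140 sets of 4 to 6 libraries. Chance flags about 1 in 20 such sets, and 19 libraries by gene were found.

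The ventral hippocampus library of female KO mouse 6 held 7 of the 19. Rarb was 58.1 CPM there (next library 12), Meis2 277 (109), Foxp1 168 (82.9), Foxp2 54 (12.5), Sp9 20.8 (7.46), Six3 20.8 and Isl1 13.5, the last pair with 0 in the 5 others. Its projection neuron marker sum was 7705 CPM. In the same region Ikzf1 was 7.67 CPM in male KO mouse 1, on 8 counts, and Six3 4.42 CPM in female WT mouse 23, on 4 counts.

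In the dorsal hippocampus, Six3 was 4.52 CPM in male KO mouse 1 (next 1.08), Isl1 1.35 CPM in male WT mouse 12 on 10 counts, and Rarb 8.37 CPM in female WT mouse 23 (next 5.5). In the amygdala, Foxp1 was 82.9 CPM in female WT mouse 23 (next 35). In the ventral striatum, Ebf1 was 23.5 CPM in female WT mouse 24 (next 14.8). In the cortex, Meis2 was 166 CPM in female KO mouse 5 (next 99.9) and Ikzf1 10.5 CPM in male KO mouse 2 on 9 counts. Isl1 and Six3 were 3.52 and 2.35 CPM in the cortex of female WT mouse 24, on 3 and 2 counts, and Isl1 was 1.22 CPM in the prefrontal cortex library labelled female WT mouse 23, on 1 count. In the last 3 the other WT libraries were at 0, and values on so few counts are within counting error of 0.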

How the results depend on the processing

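Recovery was checked in simulated counts with 200 genes changed at once by 1 on the log2 scale. The ventral striatum KO and WT fit recovered 135 of 198 changed genes among 13412. The ventral and dorsal fit recovered 179 of 195 among 13524. The real ventral KO and WT fit called 1 gene, and adjustment is stricter where few genes change. These shares can therefore overstate the recovery of a single changed gene, and depth and group size were not varied. The changed genes were drawn at random from the tested genes, and libraries were simulated independently. In the real ventral KO and WT fit the SE was 0.52 for Rarb, 0.48 for Bcl11b and 0.43 for Foxp1. The shares thus do not give the recovery for these genes. In the KO and WT fits of the ventral striatum none of the 10 was called under any of 19 alternatives, with a smallest adjusted p of 0.413. The same held in the dorsal striatum, with 0.919. Of the 190 dorsal fold changes under alternatives 36 changed sign.

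For ventral against dorsal striatum, the number of the 10 genes called was 1, and 0 with no filter, in males alone, in females alone, with the mouse as a replicate block and with the block and no low-marker libraries. It was 2 without the low-marker dorsal libraries, 3 with the marker covariate and 0 to 1 when each mouse was left out. Genes called over the whole table were 1478, and 111 in males, 134 in females, 1568 with the block, 2792 and 3068 without 2 or all 5 low-marker libraries, 2240 with the covariate and 853 to 1977 without a mouse. Ikzf1 kept its sign throughout. Signs turned for genes that were not called: without the low-marker dorsal libraries Isl1 was -0.024, Foxp2 -0.037, Sp9 -0.047 and Six3 -0.16; without all 5 Six3 was -0.013; in males Foxp2 was -0.076 and Sp9 -0.064. In females Meis2 was 0.14, Bcl11b 0.12 and Rarb 0.039, and with the covariate Ebf1 was 0.012 and Rarb 0.029. Without a mouse Six3 ran from -0.0058 to 0.34. The cause of these turns was not tested.

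For KO against WT in the ventral striatum, signs of uncalled genes turned in females alone for Isl1 (0.35), Ebf1 (-0.21), Bcl11b (-0.11) and Six3 (-0.014), in males alone for Foxp2 (-0.067) and Sp9 (0.064), without low-marker libraries for Isl1 (0.021) and Ebf1 (-0.11), and with no filter for Sp9 (0.0041). With the covariate they turned for Ebf1 (-0.11), Foxp2 (-0.20), Meis2 (-0.056), Bcl11b (-0.12) and Six3 (-0.016). Without a mouse Isl1 ran from -0.21 to 0.13, Ebf1 from -0.057 to 0.28, Foxp2 from -0.018 to 0.30 and Sp9 from -0.12 to 0.12. Acss2, the 1 gene called in each striatal region, was lost with 1 sex alone (0 calls in males and 0 in females).

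In the prefrontal cortex 10 genes were called, 367 with no filter, 46 by DESeq2, 50 in females, 55 without the library of mouse 23 and 7 to 79 without a mouse. Of the 10 genes 1 was called, 4 with no filter (Foxp2, Bcl11b, Rarb and Six3), 0 in females and 0 without the libraries with olfactory bulb genes, and 0 to 1 without a mouse. Meis2 turned to 0.49 and Sp9 to 1.26 without those libraries, and without a mouse they ran from -0.70 to 0.017 and from -0.84 to 0.41. In the ventral hippocampus no filter gave 101 called genes, 2 of them in the list (Foxp1 and Rarb). Calls elsewhere were 10 in the cortex with no filter and 4 in females, 2 in the amygdala by DESeq2 and 0 in females, 2 in the dorsal hippocampus with no filter and 1 to 2 without a mouse, and 12 for the sex difference in the ventral striatum with no filter. None of the 60 neighbour tests passed under any alternative. The replicate block was fitted with all striatal libraries and without all 5 low-marker ones, and among the 10 genes it changed the call of Ikzf1 in both; the calls of Ebf1 without the low-marker dorsal libraries and of Foxp1 and Foxp2 with the covariate were not fitted with it. A fit of males alone was not run in the prefrontal cortex, with 1 KO library.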

Other observations

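The amygdala libraries differed widely between mice in Six3, Sp9 and Foxp2. Six3 ranged over 1.46 to 41.1 CPM, Sp9 over 3.78 to 29.6 CPM and Foxp2 over 0.561 to 42 CPM in its 11 libraries. The highest Six3 values were 41.1 CPM in female KO mouse 6 and 37.6 CPM in female WT mouse 24, beside a median of 39.9 CPM in the ventral striatum. Their projection neuron marker sums were 4309 and 2012 CPM, under the lowest of the 19 striatal libraries. The lowest Six3 values were 1.46 CPM in male KO mouse 10 and 1.89 CPM in female WT mouse 23, whose sums were 1408 and 1271 CPM. Isl1 was highest in male WT mouse 12, at 10 CPM, where Six3 was 27.3 CPM and the marker sum 1169 CPM, so Isl1 and Six3 were not ordered alike over these mice. The amygdala holds several nuclei, and the labels do not say which were dissected.

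The antisense transcript gene Six3os1 was 19 ± 4.4 CPM in the ventral and 15.7 ± 8.8 CPM in the dorsal striatum (SD, n = 12 each), and 8.5 ± 5.68 CPM in the amygdala (SD, n = 11).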
